A study of Mus musculus with 2 samples.

Results

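Chemokines of the CXC family were read in RAW264.7 macrophages with and without the dye IR-61. The set held 10 genes of the 20655 that could be named on the array, *Cxcl1*, *Cxcl2*, *Cxcl3*, *Cxcl5*, *Cxcl9*, *Cxcl10*, *Cxcl11*, *Cxcl12*, *Cxcl14* and *Cxcl16*. The genes were taken by family name, with no threshold on their values, from a list drawn up when earlier results of these data were known. A probe was matched to 9 of the 10 genes, all but *Cxcl11*. The gene table of the assembly GRCm38.p6 lists *Cxcl11* as a transcribed pseudogene, and whether it is one in these cells was not tested. Of the 9 genes with a probe, 8 were well above background on both arrays.

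RAW264.7 is a mouse macrophage line established from an Abelson murine leukemia virus-induced tumour of an adult male BALB/c mouse. A culture given vehicle control was compared with a culture given IR-61, a near-infrared fluorescent dye that gathers in mitochondria, and both were treated for 24 h. The legend of the study gives the IR-61 dose as 10 μM. RNA of each culture was read on 1 single-colour Agilent array, with slide and scan shared by both. With 1 culture of a single line per condition there was no replicate error, so the conditions were compared without a test or a p-value.

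Chemokines are small secreted proteins that steer white blood cells along a gradient. In the CXC family, 1 residue parts the first pair of conserved cysteines. Members with the residues ELR before that motif, such as *Cxcl1*, *Cxcl2*, *Cxcl3* and *Cxcl5*, attract neutrophils through *Cxcr2*, and the genes are known to be switched on through NF-κB when cells meet bacterial products. *Cxcl9*, *Cxcl10* and *Cxcl11* are induced by interferons and attract activated T cells through *Cxcr3*. *Cxcl12*, *Cxcl14* and *Cxcl16* are made more steadily in many tissues.

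Signals below are the processed signals of each array before scaling, in arbitrary units. The 75th percentile of all probes was 0.49 higher on the log2 scale with IR-61 than with vehicle, so each difference is IR-61 minus vehicle after this percentile was subtracted. Every chemokine probe was printed once per array. The error beside a difference is the SD expected from spots of the same probe within an array, and it does not cover the spread between cultures. In the bulk RNA of a culture, fewer cells that express a gene and less RNA per cell could not be told apart.

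The 8 measured genes split into 5 that were lower with IR-61 and 3 that were higher, whereas 38.8% of all genes were lower. Lower by 2-fold or more were 4 genes, *Cxcl2*, *Cxcl1*, *Cxcl3* and *Cxcl10*, whereas 1.39% of all 16885 genes measured on both arrays were lower by this much. Higher by 2-fold or more was 1 gene, *Cxcl5*, against 1.99% of all genes. The median difference of the 8 genes was −0.92, and that of all genes was 0.10. Of all genes, the middle 90% lay between −0.62 and 0.75, which leaves 10% outside. All 8 chemokines lay outside that range, 5 below it and 3 above it. Without the filter on dim probes, which adds *Cxcl9*, 6 of 9 did. The set was listed with earlier results of these data known, so these counts carry no weight as a trait of the family.

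The bases before the transcription start are shown for the 4 genes that were lower by 2-fold or more, because these stretches share a motif. They are RefSeq promoters of the assembly GRCm38.p6, 5′ to 3′ on the strand of the gene, and lie upstream of the first exon. The genome of the RAW264.7 cells themselves was not read. Capitals mark the letters GGGNNNTTCC, a form bound by NF-κB, on either strand. In *Cxcl3* they also mark the TATA letters TATAAA, and in *Cxcl10* the letters GAAANNGAAA, a form of the interferon-stimulated response element. *Cxcl14*, which was higher with IR-61, is shown beside them and carries only the interferon form.
Cxcl1, chr5:90891135-90891214, plus strand: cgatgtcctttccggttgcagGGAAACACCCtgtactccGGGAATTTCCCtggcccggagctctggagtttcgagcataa
Cxcl2, chr5:90903789-90903868, plus strand: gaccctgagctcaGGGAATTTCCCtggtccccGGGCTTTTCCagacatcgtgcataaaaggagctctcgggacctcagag
Cxcl3, chr5:90786011-90786090, plus strand: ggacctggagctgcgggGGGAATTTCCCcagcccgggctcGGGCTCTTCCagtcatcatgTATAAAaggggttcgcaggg
Cxcl10, chr5:92348980-92349109, minus strand: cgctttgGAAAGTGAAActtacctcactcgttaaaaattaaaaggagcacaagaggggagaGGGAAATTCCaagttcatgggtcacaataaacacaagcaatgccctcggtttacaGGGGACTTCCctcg
Cxcl14, chr13:56296662-56296741, minus strand: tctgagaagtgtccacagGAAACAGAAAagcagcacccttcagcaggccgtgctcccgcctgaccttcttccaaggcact

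The same 10 letters, GGGAATTTCC, stood in the promoters of *Cxcl1*, *Cxcl2* and *Cxcl3*. Counted from the transcription start, they ran from −71 to −62 in *Cxcl1*, from −97 to −88 in *Cxcl2* and from −73 to −64 in *Cxcl3*. In all of them a match on the opposite strand overlapped, shifted by 1 base, and the pair was counted as 1 place. A second place of the form lay from −89 to −80 on the opposite strand in *Cxcl1*, from −78 to −69 in *Cxcl2* and from −50 to −41 in *Cxcl3*. *Cxcl10* had its places from −159 to −150 and from −104 to −95, and its interferon form from −213 to −204. The promoters of *Cxcl9*, *Cxcl12* and *Cxcl14* had no match to the NF-κB form, and those of *Cxcl5*, *Cxcl11* and *Cxcl16* were not analysed here.

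Over 32851 promoters of 250 bases each, 4.65% held the NF-κB form and 0.103% held it in 2 or more separate places. Each of the 4 genes lower by 2-fold or more held 2 places. *Cxcl1*, *Cxcl2* and *Cxcl3* are close relatives that share the letters GGGAATTTCC, so they are not separate cases. The promoter of *Cxcl5*, the neutrophil attractant that was higher, was not read, so the form could not be compared by direction among these attractants. Among the measured genes with a promoter, 24 had 2 or more places, and 5 of them, 20.8%, were lower by 2-fold or more. Those 5 were *Cxcl2*, *Nfkb2*, *Cxcl1*, *Cxcl3* and *Cxcl10*, so the chemokines themselves made up most of that share. Of the 20 other genes, only *Nfkb2* was lower by this much, and their median difference was −0.25. The median was 0.10 over the 12655 genes without the form, of which 1.3% were lower by 2-fold or more. It was 0.07 over the 767 genes with 1 or more places, of which 2.48% were lower and 1.83% higher by 2-fold or more. The count of 2 places was chosen after the values were seen. The interferon form stood in 2.98% of all promoters and, of the 7 chemokine promoters read, in those of *Cxcl10* and *Cxcl14*, which differed in opposite directions. TATAAA stood in 12.4% of all promoters and in those of *Cxcl3*, from −30 to −25, and *Cxcl9*, from −195 to −190. A match describes the letters and shows neither binding nor a cause.

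**Figure D1:**
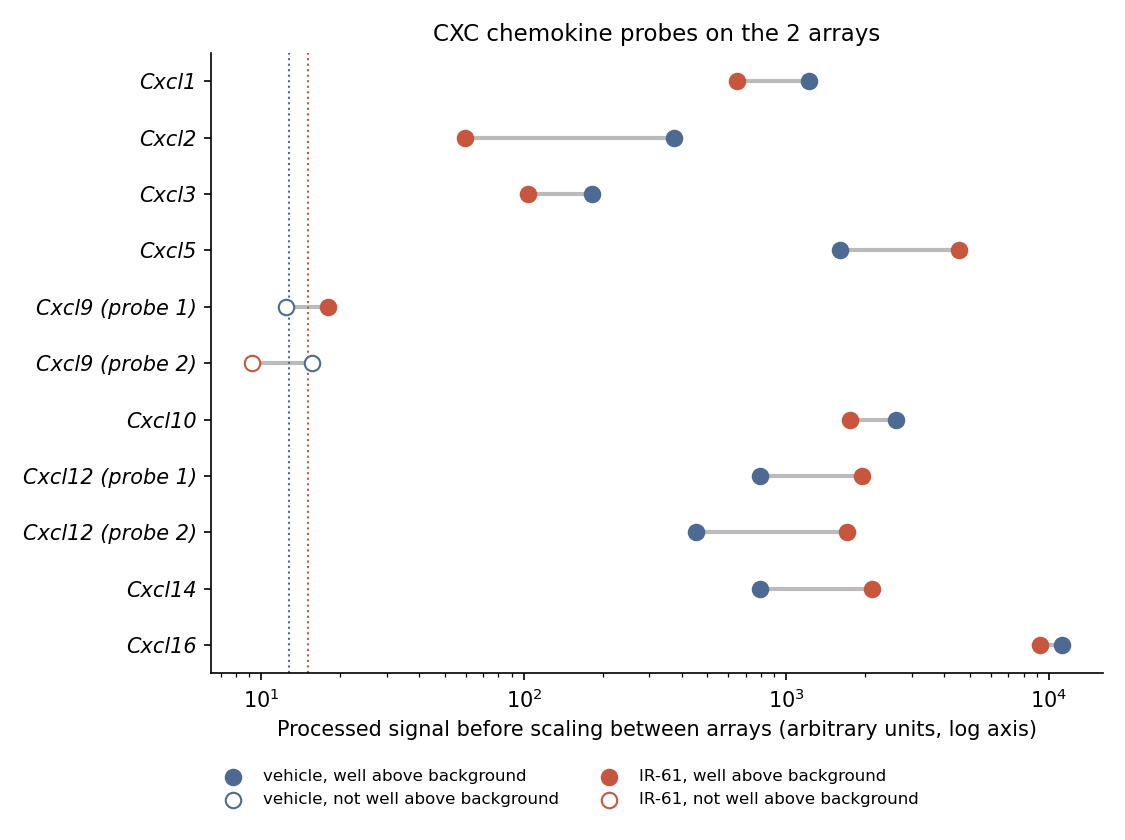
Processed signal of every chemokine probe with vehicle (blue) and IR-61 (red), in arbitrary units before scaling, on a log axis. Hollow points were not well above background and dotted lines are the lowest signals that were, 12.8 with vehicle and 15.0 with IR-61. *Cxcl1*, *Cxcl2*, *Cxcl3*, *Cxcl10* and *Cxcl16* lie lower with IR-61 and *Cxcl5*, *Cxcl12* and *Cxcl14* lie higher, while *Cxcl9* stays by the dotted lines.

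Among the neutrophil attractants, the values of *Cxcl1*, *Cxcl2* and *Cxcl3* were lower with IR-61 and that of *Cxcl5* was higher. *Cxcl2*, known as MIP-2 and quickly released by activated macrophages, had a signal of 373 with vehicle and 59.8 with IR-61. This was 8.75-fold lower after scaling, a log2 difference of −3.13 ± 0.35 (SD expected from spots, n = 1 array per condition). With normexp background correction it was 4.45-fold lower, at −2.15. Only 0.0296% of all genes had a lower difference. *Cxcl1*, also called KC, had a signal of 1220 with vehicle and 651 with IR-61. It was 2.63-fold lower after scaling, with a log2 difference of −1.40 ± 0.16. *Cxcl3*, a close relative of both, gave 182 with vehicle and 104 with IR-61, 2.45-fold lower after scaling, and a log2 difference of −1.30 ± 0.23.

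The differences of *Cxcl1* and *Cxcl3* lay 0.10 apart on the log2 scale, within the 0.28 SD expected from spots for that gap. *Cxcl2* lay 1.73 below *Cxcl1*, 4.5 times the SD of 0.39 for that gap, and 0.83 below it with normexp. The order of *Cxcl1* and *Cxcl3* was thus not resolved, whereas the larger difference of *Cxcl2* exceeded the noise between spots. These 3 transcripts are similar in sequence, and how far each probe binds the others was not tested.

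*Cxcl5*, or LIX, attracts neutrophils through the same receptor. Its signal was 1597 with vehicle and 4541 with IR-61. After scaling it was 2.03-fold higher, a log2 difference of 1.02 ± 0.09, and 313 genes had a larger rise. This log2 difference sat at the 2-fold limit and passed it under 5 of 11 settings, between 0.94 and 1.51. With the brightest probe of each gene, *Cxcl2* and *Cxcl5* were the lowest and the highest of the set. The gap between them was 4.15 on the log2 scale, with an SD expected from spots of 0.36. With the mean over its probes *Cxcl12* was above *Cxcl5*, at 1.12.

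On mouse chromosome 5 the neutrophil attractants lie in a row that also holds *Pf4*. The order is *Cxcl5*, *Ppbp*, *Pf4*, *Cxcl3*, *Cxcl15*, *Cxcl1* and *Cxcl2*. The differences changed sign along this row. *Cxcl5* at the first end had a difference of 1.02 and *Ppbp*, the precursor of further neutrophil attractants, one of 0.74 ± 0.46. *Ppbp* was dim, with a signal of 21.5 with vehicle and 50.6 with IR-61. *Pf4*, platelet factor 4, was bright, at 13292 with vehicle and 15803 with IR-61, and had a difference of −0.24 ± 0.09. Without scaling the sign of *Pf4* turned, with a signal 1.19 times as high with IR-61 as with vehicle. *Cxcl3*, *Cxcl1* and *Cxcl2* followed with −1.30, −1.40 and −3.13, and *Cxcl15* between them was not well above background on either array. Of the 7 genes, 4 were lower and 2 higher after scaling, whereas 38.8% of all genes were lower.

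The interferon-inducible genes lie in a second row on the same chromosome, in the order *Cxcl9*, *Art3*, *Cxcl10* and *Cxcl11*. *Art3*, a gene of another family, had a difference of 0.05 ± 0.46 from a dim probe.

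**Figure D2:**
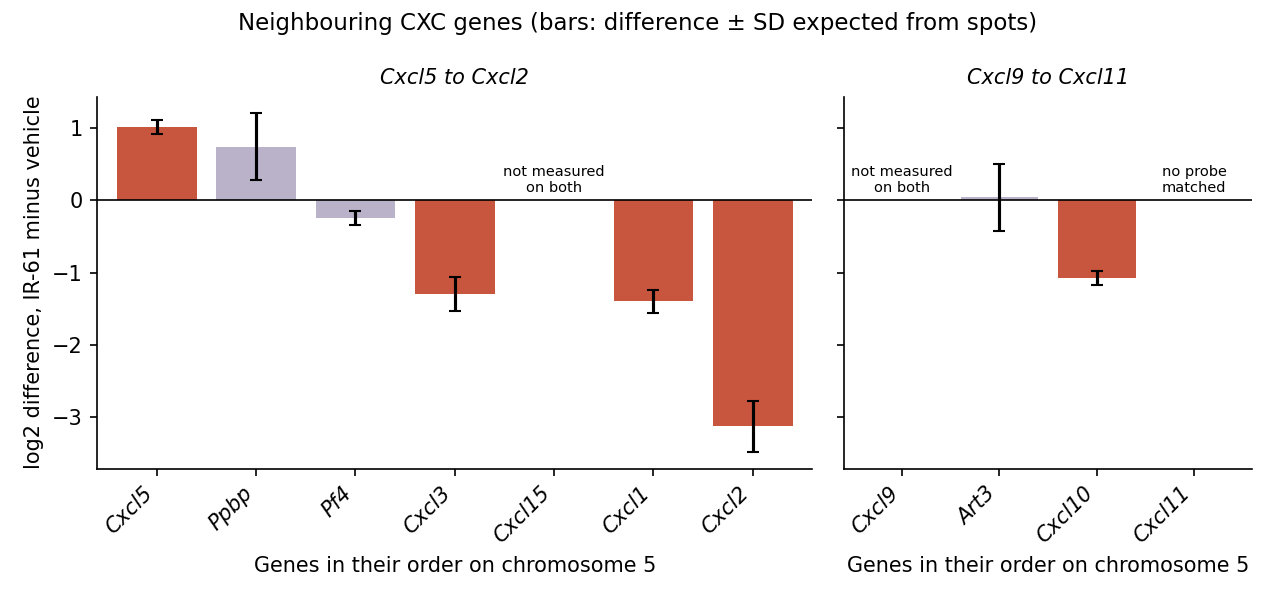
Log2 difference, IR-61 minus vehicle, of the genes of both rows in their order on chromosome 5, with bars for the SD expected from spots. Genes of the set are red and their neighbours grey. The left row goes from 1.02 in *Cxcl5* to −3.13 in *Cxcl2*, and *Cxcl10* is the one gene of the right row past 2-fold.

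Of the interferon-inducible chemokines, *Cxcl10* was well measured. *Cxcl10*, or IP-10, had a signal of 2624 with vehicle and 1746 with IR-61. It was 2.11-fold lower after scaling, a log2 difference of −1.08 ± 0.09, and 192 genes had a larger fall. Without scaling it was 0.59 lower on the log2 scale and no longer past 2-fold.

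*Cxcl9*, known as MIG, was near background. Its first probe read 12.4 with vehicle and 18.0 with IR-61 and was well above background with IR-61 only. Its second probe read 15.5 with vehicle and 9.20 with IR-61 and was not well above background on either array. At signals this near the floor no fold is given, and a difference was not detectable.

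Genes that lead to the interferon-inducible chemokines were read beside them. Of 16 genes of interferon signalling, 14 were measured on both arrays, and 0 were lower and 0 higher by 2-fold or more, counts near the 1.39% and 1.99% of all genes. Their median difference was 0.00, against 0.10 over all genes. *Irf1*, a transcription factor induced by interferons, had the lowest difference, −0.54, with 36616 with vehicle and 35416 with IR-61. *Irf9*, the DNA-binding part of a complex with STAT proteins, had the highest, 0.47, with 4701 with vehicle and 9127 with IR-61. *Ifnb1* was well above background with vehicle only, at 13.5, close to the lowest such signal of that array, 12.8. With IR-61 it read 6.04, and no fold is given for signals this near the floor. *Ifng* was well above background on neither array.

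*Cxcl12*, or SDF-1, holds blood stem cells and lymphocytes in tissue through *Cxcr4*. It was read by 2 probes, and both were higher with IR-61. The brighter probe read 793 with vehicle and 1946 with IR-61, 1.75-fold higher after scaling, a log2 difference of 0.81 ± 0.19. The other probe, designed to a different RefSeq transcript, read 452 with vehicle and 1708 with IR-61, 2.69-fold higher, a log2 difference of 1.43 ± 0.19. The probes lay 0.62 apart, more than the 0.27 SD expected from spots, so they gave the same direction and not the same size. With the mean of both probes the difference was 1.12 and *Cxcl12* passed 2-fold.

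*Cxcl14*, or BRAK, a chemokine of epithelia and stroma, had a signal of 794 with vehicle and 2119 with IR-61. It was 1.90-fold higher after scaling, a log2 difference of 0.93 ± 0.19. The differences of *Cxcl12*, *Cxcl14* and *Cxcl5* lay 0.12 and 0.09 apart in that order, within the SDs of 0.27 and 0.21 expected from spots. The 3 higher genes therefore had no resolved order among themselves.

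*Cxcl12* and *Cxcl14* are known from stromal cells, so markers of such cells were read. All 5 fibroblast and stroma markers, *Col1a1*, *Col1a2*, *Col3a1*, *Pdgfra* and *Dcn*, were well above background on both arrays, and none of them was at or near 0. Their summed signal was 64731 with vehicle and 110195 with IR-61, a difference of 0.28 on the scaled log2 scale. The signals ranged from 860 to 27148 with vehicle and from 1515 to 58670 with IR-61, and 3 of the 5 markers were higher and 2 lower after scaling. Over all genes, 38.8% were lower. *Col1a1* had the highest difference, 0.62, and *Col3a1* the lowest, −0.34. The median of the 5 markers was 0.10, beside 0.10 over all genes. Whether stromal transcripts had a part in the values of *Cxcl5*, *Cxcl12* and *Cxcl14* was not tested.

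*Cxcl16*, a membrane-bound scavenger receptor whose shed ectodomain attracts *Cxcr6*-bearing T cells, was read by 1 bright probe. It read 11210 with vehicle and 9205 with IR-61. It was 1.71-fold lower after scaling, a log2 difference of −0.77 ± 0.09, and 2.84% of all genes had a lower difference. Of 9 proteases that shed or trim CXC chemokines, 8 were measured on both arrays, and 0 were lower and 0 higher by 2-fold or more, against 1.39% and 1.99% of all genes. *Adam10*, which sheds *Cxcl16*, read 24680 with vehicle and 49448 with IR-61, a log2 difference of 0.51. *Adam17* had a difference of 0.02. *Mmp12*, the macrophage elastase, had the lowest difference, −0.72, and *Mmp8*, the neutrophil collagenase, the highest, 0.72.

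**Figure D3:**
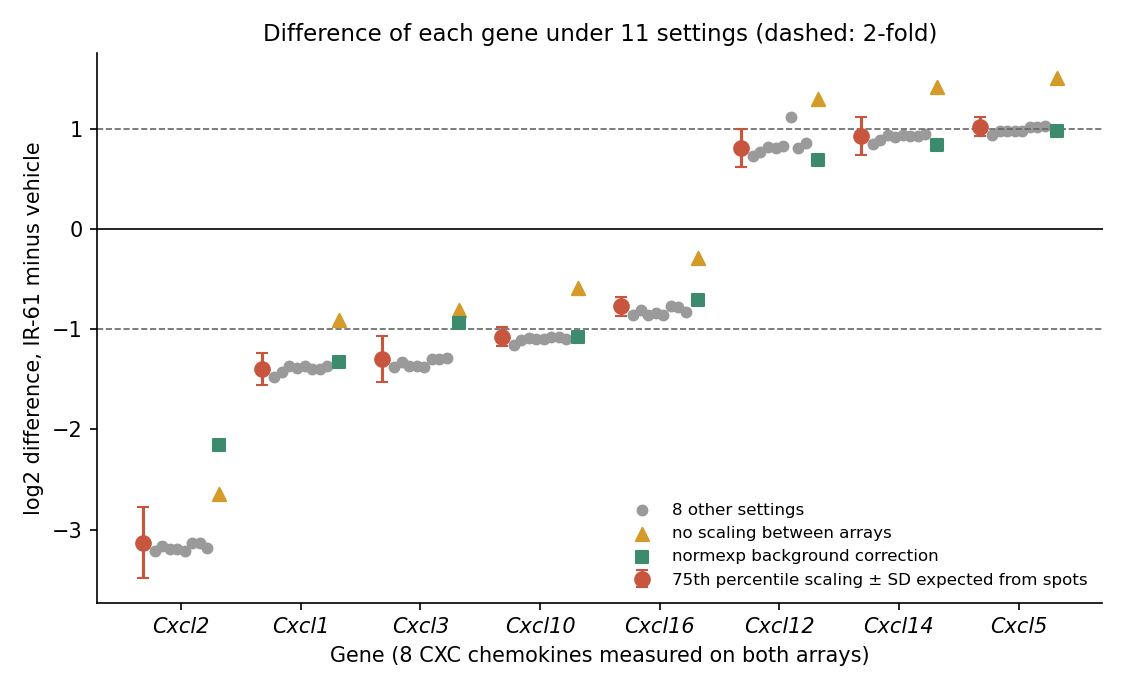
Log2 difference, IR-61 minus vehicle, of the 8 measured chemokines in order of size. Red points are the values with 75th percentile scaling and bars the SD expected from spots, grey points 8 further settings, triangles no scaling and squares normexp background correction. Every gene stays on its side of 0 under all 11 settings, and dashed lines mark 2-fold.

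The direction of each of the 8 genes was the same under the 75th percentile scaling and the 10 alternatives run on single genes. *Cxcl2* was lower by 2-fold or more under all 11 settings, between −3.21 and −2.15. *Cxcl1* and *Cxcl10* passed 2-fold under 10 settings, all but no scaling, and *Cxcl3* under 9, missing it also with normexp background correction, at −0.94. *Cxcl14* passed 2-fold only without scaling, at 1.42, and *Cxcl16* under none, between −0.86 and −0.28. Relative to the median of all genes in each setting, the widest range was that of *Cxcl2*, from −3.29 to −2.12, and *Cxcl3* lay between −1.41 and −0.91. *Cxcl1* lay between −1.50 and −1.29, *Cxcl10* between −1.20 and −1.05 and *Cxcl16* between −0.93 and −0.68. *Cxcl5* lay between 0.92 and 1.01, *Cxcl14* between 0.83 and 0.90 and *Cxcl12* between 0.71 and 1.04. All 8 genes lay outside the middle 90% of genes under each of these 11 settings, but not without the filter on dim probes.

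The receptors were read next, since a macrophage can also respond to CXC chemokines. Of 8 receptor genes, 7 were measured on both arrays, and by 2-fold or more 0 were lower and 1 was higher, against 1.39% and 1.99% of all genes. *Cxcr3*, the receptor of *Cxcl9*, *Cxcl10* and *Cxcl11*, read 200 with vehicle and 1130 with IR-61. It was 4.03-fold higher after scaling, a log2 difference of 2.01 ± 0.19, and only 20 genes had a larger rise. It was higher by 2-fold or more under all 11 settings, the smallest value being 1.64 with normexp. Its ligand *Cxcl10* was lower, so receptor and ligand differed in opposite directions.

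The remaining receptors stayed within 2-fold. *Cxcr2*, the receptor of the neutrophil attractants, was dim, at 29.9 with vehicle and 35.3 with IR-61, with a log2 difference of −0.25 ± 0.46. *Cxcr1*, a related receptor, read 1230 with vehicle and 1543 with IR-61, a difference of −0.16 ± 0.09. *Cxcr4*, the receptor of *Cxcl12*, read 5796 with vehicle and 6516 with IR-61, a difference of −0.32 ± 0.09. The sign of these 3 receptors turned without scaling, to 0.24, 0.33 and 0.17. *Cxcr5*, which guides B cells, was dim, at 30.5 with vehicle and 25.0 with IR-61, with a difference of −0.78 ± 0.46. *Cxcr6*, the receptor of *Cxcl16*, had a brighter probe at 54.4 with vehicle and 87.3 with IR-61, a difference of 0.19 ± 0.38, and a second probe at −0.01 ± 0.46. *Ackr1*, a decoy receptor, read 98.0 with vehicle and 156 with IR-61, a difference of 0.19 ± 0.23, and *Ackr3*, which takes up *Cxcl12*, was on neither array well above background. With normexp the values of *Cxcr6* and *Ackr1* changed sign, to −0.058 and −0.013.

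**Figure D4:**
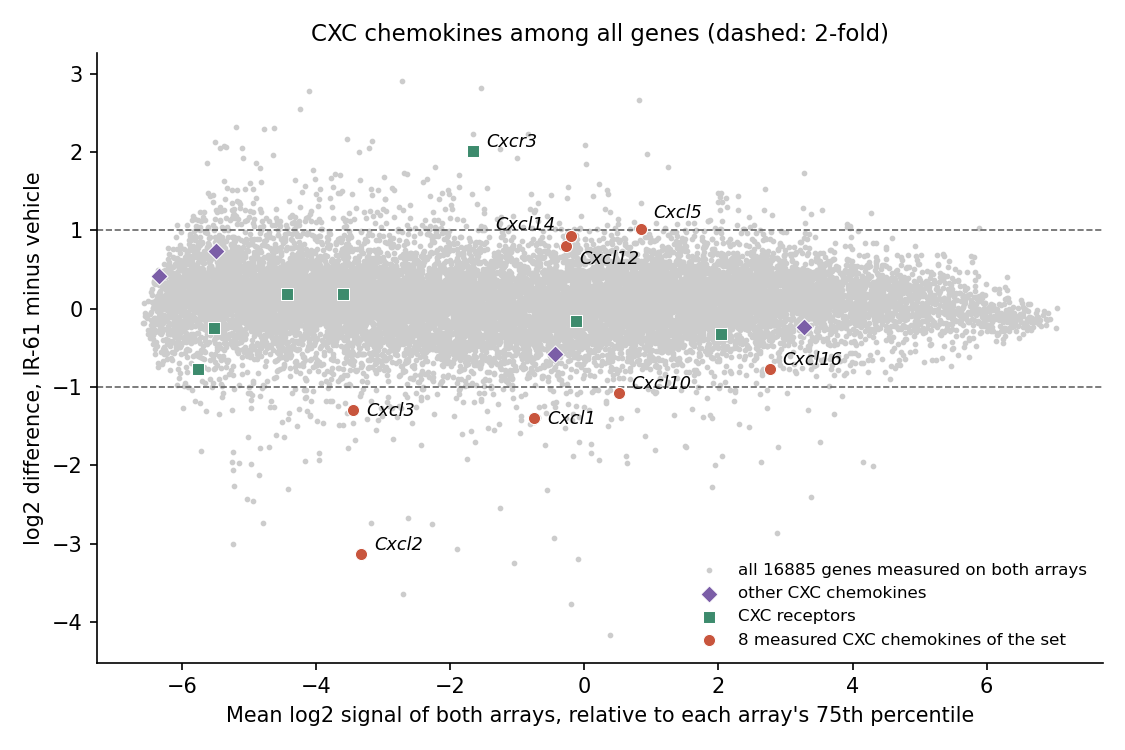
Log2 difference, IR-61 minus vehicle, against the mean log2 signal of both arrays relative to each array's 75th percentile, for all 16885 genes measured on both arrays (grey). The 8 measured chemokines (red circles), 7 receptors (green squares) and 4 other CXC chemokines (purple diamonds) are marked, and dashed lines are 2-fold. *Cxcl2* and *Cxcr3*, at −3.13 and 2.01, lie far from the bulk of genes.

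The family holds 5 further chemokines that were not in the set. Of these *Cxcl15* was not measured, and *Cxcl13*, *Cxcl17*, *Pf4* and *Ppbp* stayed within 2-fold. *Cxcl13*, which draws B cells, read 1134 with vehicle and 1067 with IR-61, a log2 difference of −0.58 ± 0.09. *Cxcl17*, a chemokine of mucosal surfaces, was dim, at 13.4 with vehicle and 25.1 with IR-61, with a difference of 0.42 ± 0.46. Over all 15 CXC chemokines, 12 were measured, their median difference was −0.41 and 8 lay outside the middle 90% of genes. The 8 were those of the set and none of the 4 others was among them, which carries no weight, because the set was listed with earlier results of these data known.

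In the CC family, 16 of 19 chemokines were measured on both arrays. By 2-fold or more 1 of them was lower, *Ccl9*, at −1.27, and 1 higher, *Ccl3*, at 1.09, against 1.39% and 1.99% of all genes. *Ccl9* attracts myeloid cells and *Ccl3*, or MIP-1α, monocytes and T cells. The median difference was −0.08, against −0.41 over all 12 measured CXC chemokines. Whether the families differ could not be tested with 1 array per condition.

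NF-κB is known to drive the neutrophil attractants, and of its 13 subunits, inhibitors and kinases all were measured on both arrays. By 2-fold or more, 6 were lower and 0 higher, against 1.39% and 1.99% of all genes, with a median of −0.78. *Nfkbie*, an inhibitor that is itself an NF-κB target, had the lowest difference, −2.87, with 24953 with vehicle and 4802 with IR-61. *Chuk*, the kinase IKKα, had the highest, 0.61, with 10665 with vehicle and 22780 with IR-61. The 5 others past 2-fold were *Nfkbia* at −1.95, *Relb* at −1.81, *Bcl3* at −1.70, *Nfkb2* at −1.44 and *Nfkbiz* at −1.18, named here because they complete the count. All of these are themselves known targets of NF-κB. *Rela*, the main activating subunit, had a difference of −0.16.

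Chemokine mRNAs are short-lived, and 8 genes of proteins that decay or stabilise such mRNAs were measured on both arrays. Past 2-fold were 0 lower and 0 higher, against 1.39% and 1.99% of all genes, with a median of −0.11. *Zc3h12a*, the RNase Regnase-1, had the lowest difference, −0.95, with 4143 with vehicle and 3018 with IR-61. *Zfp36l1*, a protein that binds AU-rich elements, had the highest, 0.82, with 4712 with vehicle and 11679 with IR-61. *Zfp36*, or tristetraprolin, which is known to shorten the life of chemokine mRNAs, had a difference of −0.75.

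**Figure D5:**
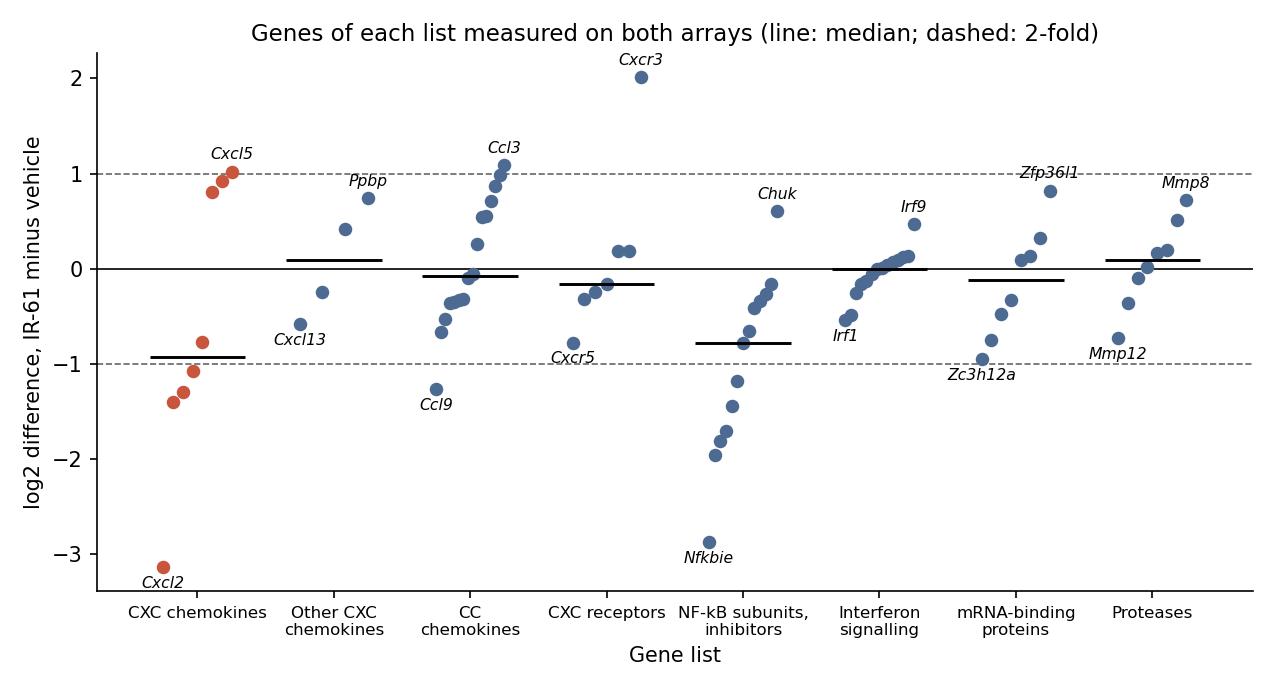
Log2 difference, IR-61 minus vehicle, of the genes measured on both arrays in each list, with a line at the median, dashed lines at 2-fold and the names of the lowest and the highest gene. The CXC set (red), listed with earlier results of these data known, has a median of −0.92. The 4 other CXC chemokines measured run from −0.58 to 0.74. The interferon signalling genes run from −0.54 to 0.47 around a median of 0.00.

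The macrophage identity of the cultures was read from 10 markers. A probe was matched to 9 of them, all but *Cd68*, and all 9 were well above background on both arrays, with differences from −0.98 in *Cd14* to 1.03 in *Adgre1*. Markers of other cells were also above background on both arrays, 4 of 4 for T cells, 3 of 3 for B cells, 3 of 3 for endothelium, 2 of 4 for epithelium and all 4 neutrophil markers with a probe, since none was matched to *Ly6g*. The 4 neutrophil markers were all higher with IR-61, with a median difference of 0.51, against 0.10 over all genes, of which 38.8% were lower. Of these, *S100a9* and *Mpo* were dim, at 16.5 and 33.2 with vehicle, with differences of 0.63 ± 0.46 and 0.64 ± 0.38. *S100a8* and *Elane* were brighter, with differences of 0.40 ± 0.09 and 0.17 ± 0.09. The B cell marker *Ms4a1* had a difference of −1.46. *Epcam* and *Cdh1* stayed near background with vehicle and IR-61 alike. No spot was saturated, and the share of probes well above background was 77.6% for vehicle and 81.2% for IR-61.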

How the data were processed

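Total RNA of 2 RAW264.7 cultures, vehicle and IR-61, was labelled with Cy3 and hybridized to 1 Agilent mouse array each. The authors deposited spot intensities from Agilent Feature Extraction, which subtracts the background and removes trends over the array (version 11.0.1.1 per the file headers, 11.0.0.1 in the submitters' processing notes). The deposited table of log2 values correlated with these intensities across probes (Pearson r 0.9995 on the vehicle array, 0.9988 on the IR-61 array). Both of its columns had a median of 7.15, and its scale between arrays is not given in the sources used here.

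Control and outlier spots (124 and 139) were left out, log2 signals were averaged per probe and scaled by subtracting each array's 75th percentile. Probes were named through RefSeq accessions (27224 probes, 20655 genes), and a gene with several probes took its brightest. The SD between spots came from those of the 399 probes printed 10 times that were well above background. Gene order and names came from a RefSeq table of GRCm38.p6, another assembly than that of the array design, so its coordinates were used for no probe. The steps were tested on simulated data. Alternatives were other scalings, the deposited log2 values, normexp (offset 50), the mean over probes, outlier spots kept, a position trend removed, no filter on dim probes and a 3-fold limit. The number of arrays limits the precision.

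The genes named were all 10 members, every CXC receptor, and the largest fall and rise of each list. Further genes, such as *Adam10*, *Adam17*, *Zfp36*, *Rela*, *Ifnb1* and *Ifng*, the neighbours on chromosome 5, the other CXC chemokines, the remaining NF-κB genes past 2-fold and the markers, were named after their values were seen. The members and lists were chosen with earlier results of these data known. Protein sequences were not used here. Software was limma 3.58.1 in R 4.3.3, and numpy 2.4.6, pandas 2.3.3 and matplotlib 3.10.9 in Python 3.11.15.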

Additional observations from a re-analysis of the deposited data

How the results depend on the processing

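No paired analysis was possible because vehicle and IR-61 had 1 array each, and for the same reason no array could be left out. The 8 chemokines kept their direction under all alternatives run on them. For the lists other than the set and the receptors, the counts past 2-fold come from the 75th percentile scaling alone. With no scaling, the median over all genes went from 0.10 to 0.59, the median of the 8 chemokines from −0.92 to −0.44, the count lower by 2-fold or more from 4 to 1 and the count higher from 1 to 3, with 2228 genes past 2-fold in place of 571. It also turned *Cxcr1* to 0.33, *Cxcr2* to 0.24 and *Cxcr4* to 0.17. Normexp turned *Cxcr6* to −0.058 and *Ackr1* to −0.013, and left 273 genes past 2-fold. With a 3-fold limit 1 chemokine was lower, 0 were higher and 114 genes passed, and without the filter on dim probes 1361 passed and 6 of 9 chemokines lay outside the middle 90% of genes. The count of higher chemokines was 0 with the deposited log2 values, normexp, loess, quantile normalization, median scaling and the 75th percentile of detected probes, and 2 with the mean over probes. The share of lower genes among those past 2-fold was 41.2%, and 54.2% with scaling by the median, 52.1% with quantile normalization, 52.2% with loess, 51.4% with the deposited log2 values, 54.6% with normexp and 3.23% without scaling. Apart from the shift between arrays without scaling and the changed limit or filter, the cause was not tested. Dim probes, such as those of *Cxcl9*, *Cxcr2* and *Cxcr5*, had the widest error, and no value covers the spread between cultures.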
